A study of Mus musculus with 18 samples.

Results

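The enzymes that write and remove DNA methylation were followed across 18 bulk RNA libraries of mouse retinal pigment epithelium (RPE), the monolayer that supports the photoreceptors from behind. The 9 genes were taken by symbol from the table of gene counts: the methyltransferases Dnmt1, Dnmt3a and Dnmt3b, the maintenance factor Uhrf1, the dioxygenases Tet1, Tet2 and Tet3, and the DNA glycosylases Tdg and Mbd4. They are 9 of 21859 rows, and all 9 passed the filter on low counts that left 15944 genes for testing. The groups were Young, RPE of young mice (7 libraries), Old, RPE of aged mice (4 libraries), both with no vector named, Old-Control, RPE of aged mice given AAV2-tTA (3 libraries), and Old-OSK, RPE of aged mice given both AAV2-tTA and TRE-OSK (4 libraries). Adeno-associated virus 2 delivered tTA, the tetracycline transactivator, which switches on the TRE promoter in front of OSK, the reprogramming factors Oct4 (Pou5f1), Sox2 and Klf4. The 2 vector groups therefore share the aged host, the virus and tTA. Strain, ages, sex, the promoter behind tTA, vector doses and the interval after injection are not given in the sources used here. The labels do not say that replicates came from separate mice, so p-values measure the spread between these libraries, which may be partly technical.

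Methylation of cytosine in CpG dinucleotides is set by the de novo methyltransferases Dnmt3a and Dnmt3b and copied to the new strand after replication by Dnmt1, which Uhrf1 brings to hemimethylated sites. The Tet dioxygenases oxidise 5-methylcytosine stepwise, and Tdg excises the oxidised bases so that base excision repair restores an unmethylated cytosine. Mbd4 binds methylated CpG and excises thymine from G:T mismatches left by deamination. The adult RPE is a largely non-dividing epithelium. RNA was measured here, and no methylation.

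The libraries held 18104828 to 32348136 counts. The vector check went with the labels: Pou5f1 stood at 75.1 ± 21.1 CPM (counts scaled to library size, SD, n = 4) in Old-OSK and at 0.651 ± 0.370 CPM (SD, n = 3) in Old-Control, and Sox2 and Klf4 did not overlap between these groups either, where counts per gene cannot tell vector from endogenous transcripts. Klf4 did overlap between Old-OSK (155 to 432 CPM) and Old (11.7 to 216 CPM). In the test described below, Klf4 was not called between Old-OSK and Old-Control (log2 difference 3.43, edgeR adjusted p = 0.0631). It was called higher in Old than in Young (2.18, edgeR adjusted p = 0.0347). All 15 RPE markers were detected in every library, with a summed level of 19094 to 72080 CPM. On the first principal component, which held 46.5% of the variance, Old replicate 4 (73.2) and Old-Control replicate 2 (61.8) lay among the Old-OSK libraries (45.7 to 96.0), and all other libraries stood at or below 21.8. Results that rest on these 2 libraries are given with and without them. The letter M in a library's name, whose meaning is not given in the sources used here, marked Young replicates 5, 6 and 7, Old-Control replicates 2 and 3 and Old-OSK replicate 4, and no Old library.

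The promoters of 4 of the members whose levels differed between groups are shown because CpG, printed in capitals, is the dinucleotide that these enzymes act on. The window of Tdg, whose level also differed, is not printed. Each window runs 5′ to 3′ on the gene's own strand from 250 bases before to 50 bases after a transcription start of RefSeq (GRCm38.p6), and Dnmt3a, Dnmt1 and Uhrf1 have more than 1 such start. They are Dnmt3a at chr12:3806910-3807209 (plus strand), Dnmt1 at chr9:20952574-20952873 (minus strand), Uhrf1 at chr17:56303087-56303386 (plus strand) and Tet1 at chr10:62887275-62887574 (minus strand).
Dnmt3a: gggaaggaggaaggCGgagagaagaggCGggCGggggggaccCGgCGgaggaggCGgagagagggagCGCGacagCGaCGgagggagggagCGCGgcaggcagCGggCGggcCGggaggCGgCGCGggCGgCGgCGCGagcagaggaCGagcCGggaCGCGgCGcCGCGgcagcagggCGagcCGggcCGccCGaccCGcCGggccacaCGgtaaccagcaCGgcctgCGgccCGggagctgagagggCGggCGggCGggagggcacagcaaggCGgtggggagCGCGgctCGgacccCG
Dnmt1: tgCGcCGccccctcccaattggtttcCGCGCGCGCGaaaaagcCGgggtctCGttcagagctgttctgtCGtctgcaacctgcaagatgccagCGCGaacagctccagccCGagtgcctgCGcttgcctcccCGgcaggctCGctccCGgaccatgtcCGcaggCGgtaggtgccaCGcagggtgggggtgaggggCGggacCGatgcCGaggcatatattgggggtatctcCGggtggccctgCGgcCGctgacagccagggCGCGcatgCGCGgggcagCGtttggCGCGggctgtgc
Uhrf1: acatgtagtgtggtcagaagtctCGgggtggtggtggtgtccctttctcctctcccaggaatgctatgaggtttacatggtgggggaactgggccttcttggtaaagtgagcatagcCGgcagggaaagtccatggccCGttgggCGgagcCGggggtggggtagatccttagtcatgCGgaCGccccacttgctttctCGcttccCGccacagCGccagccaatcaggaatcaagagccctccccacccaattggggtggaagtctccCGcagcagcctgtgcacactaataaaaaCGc
Tet1: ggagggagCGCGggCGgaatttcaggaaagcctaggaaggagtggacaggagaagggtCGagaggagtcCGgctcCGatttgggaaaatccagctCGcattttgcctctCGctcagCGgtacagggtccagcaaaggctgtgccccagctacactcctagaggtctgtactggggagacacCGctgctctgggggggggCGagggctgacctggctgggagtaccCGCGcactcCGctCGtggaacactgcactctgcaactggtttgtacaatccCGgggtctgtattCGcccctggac

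RefSeq gave 14 such windows for the 9 genes. They held a median of 25.5 CpG, against a median of 7 over all 32851 mouse windows in the table, and 13 of the 14 lay above that median. Those windows belong to 27025 genes, not chosen by expression in RPE. The exception was an upstream start of Dnmt1 with 2 CpG. The E2F-type motifs TTCCCGC and TTGGCGC, searched on both strands because Dnmt1 and Uhrf1 are textbook S-phase genes, were found in 3 windows. TTCCCGC lay in the Uhrf1 window printed above and in that of Mbd4, and 4.6% of all windows hold it. TTGGCGC lay in the Dnmt1 window printed above, and 2.45% of all windows hold it. Either motif is held by 6.81% of all windows. Both contain CpG, so a share over all windows is no matched share for these mostly CpG-rich ones. The windows of Dnmt1 and Uhrf1 that are not printed hold neither motif, and that of Uhrf1 has 33 CpG, against 12 in the printed one. The octamer ATGCAAAT, the Sox-type motif CATTGTT and the Klf-type motif CCACACCC were in none of the 14 windows and in 1.74%, 3.78% and 3.56% of all windows. These matches describe letters in 300 bases and not binding.

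All 9 genes were detected in every library, at levels far apart. Scaled to the length of all annotated exons, Young RPE held most Dnmt3a, at 5.19 ± 0.395 CPM per kilobase (SD, n = 7), followed by Tdg at 3.87 ± 0.311 and Dnmt1 at 3.56 ± 0.371. Tet3 stood at 2.49 ± 0.354 and Tet2 at 1.53 ± 0.309 CPM per kilobase. Mbd4 (0.742 ± 0.0871), Uhrf1 (0.632 ± 0.214), Tet1 (0.605 ± 0.135) and Dnmt3b (0.361 ± 0.113) made up the low end of the same scale. Neighbours in this order whose Young libraries did not overlap were Dnmt3a and Tdg, Dnmt1 and Tet3, and Tet2 and Mbd4, and all other neighbours overlapped. In Old-OSK Dnmt1 stood at 5.09 ± 0.258 CPM per kilobase (SD, n = 4) and Dnmt3a at 3.01 ± 0.408, with no overlap between the genes. The means stood in the same order in Old, at 4.21 ± 0.473 for Dnmt1 and 3.59 ± 0.564 for Dnmt3a (SD, n = 4), with overlap, and in the Young order in Old-Control, at 3.66 ± 1.05 and 4.03 ± 0.433 (SD, n = 3). Exon length includes every annotated isoform, so these per-length levels are approximate.

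**Figure D1:**
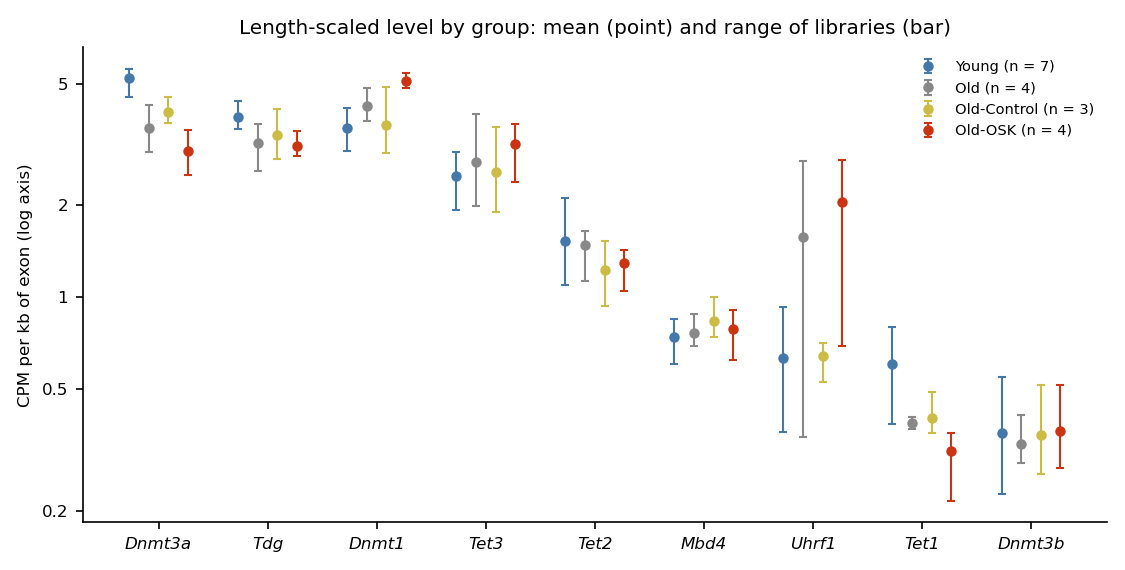
Level of each enzyme gene in CPM per kilobase of exon (log axis), by group, with points at the group mean and bars over the range of its libraries. In Young RPE the means run from 5.19 for Dnmt3a down to 0.361 for Dnmt3b, and the mean of Dnmt1 lies above that of Dnmt3a in Old and in Old-OSK.

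For the 9 genes, 4 comparisons were read from 1 edgeR quasi-likelihood fit over all genes, with Benjamini-Hochberg adjustment and calls at an adjusted p under 0.05. Between Old and Young, 2 of 9 genes fell with age, Dnmt3a and Tet1, and none rose, where 9.56% of all genes tested were called and 4.16% were called lower. In Old-OSK against Old-Control no member was called, where 0.728% of all genes were called. At an unadjusted p under 0.05 there were 3 (Dnmt3a, Dnmt1 and Uhrf1), against 26.3% of all genes, and DESeq2 called these 3. Against Young, 5 of 9 were called in Old-OSK, where 46.4% of all genes were called. Dnmt1 and Uhrf1 rose (25.1% of all genes did) and Dnmt3a, Tet1 and Tdg fell (21.4% of all genes did). Between Old-Control and Old none was called by edgeR or DESeq2, as for all genes in edgeR (0%), and 1 (Uhrf1) had an unadjusted p under 0.05, against 3.74% of all genes. The median log2 fold change of the 9 genes was -0.05 between Old and Young (all genes -0.0044), 0.04 between Old-OSK and Old-Control (all genes -0.03), 0.06 between Old-Control and Old (all genes 0.04) and 0.02 between Old-OSK and Young (all genes 0.06). Each group enters 2 of the 4 comparisons, so these share samples. In bulk RNA, fewer cells of a type and less RNA per cell cannot be told apart.

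**Figure D2:**
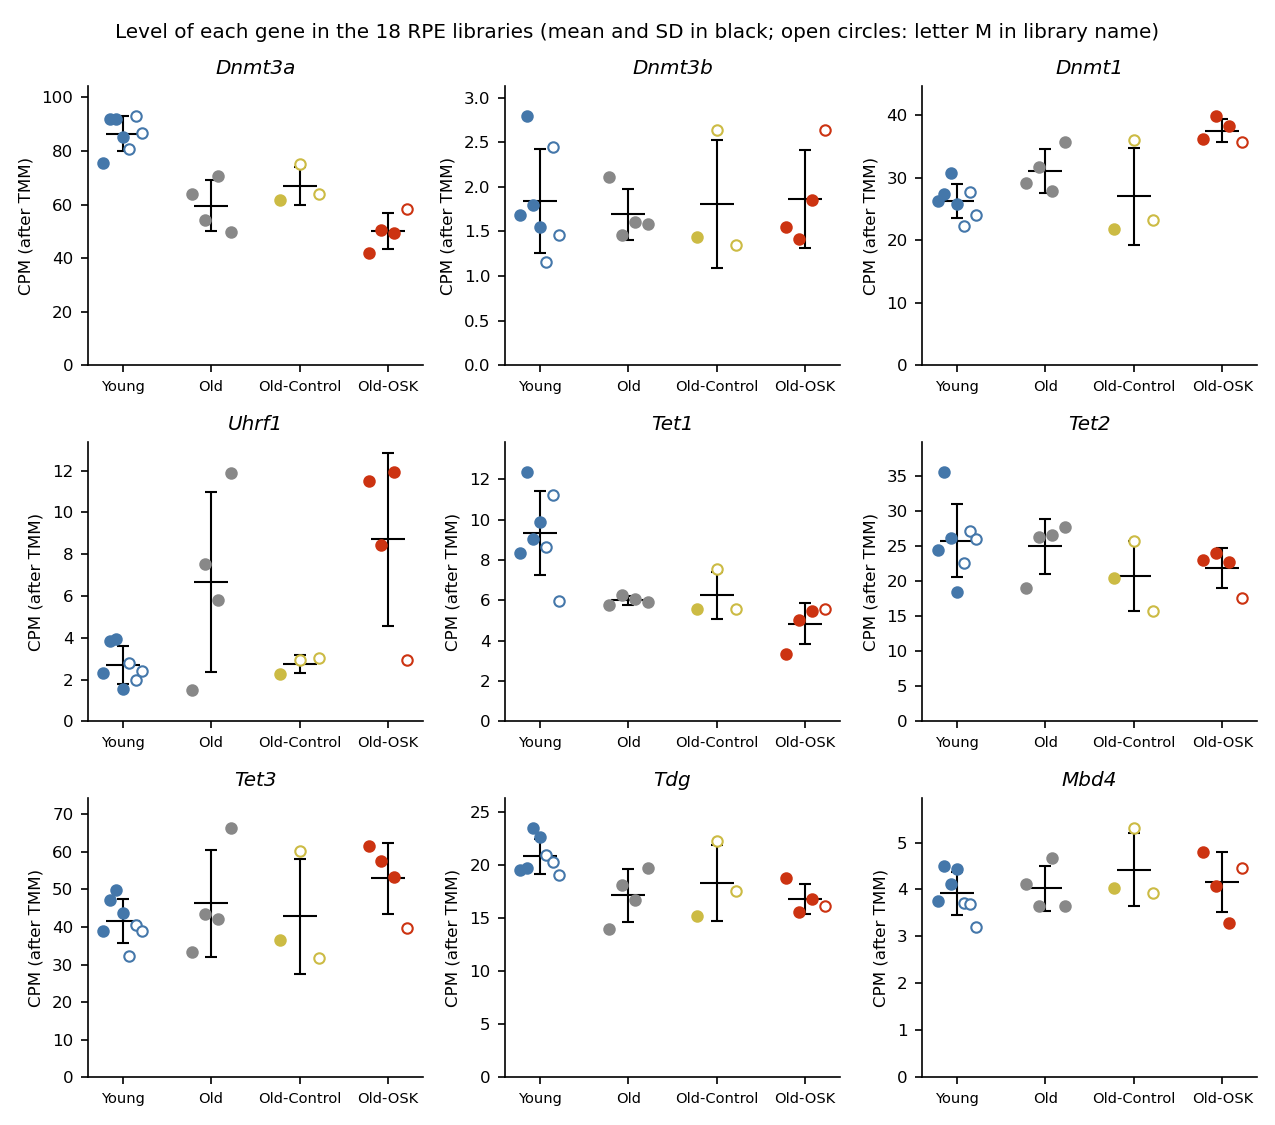
CPM of each enzyme gene in all 18 libraries by group, with 1 point per library and the group mean with its SD. Dnmt3a is highest in Young (75.5 to 93.1) and lowest in Old-OSK (41.9 to 58.5), and the mean of Dnmt1 is highest in Old-OSK (libraries at 35.7 to 39.9).

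Dnmt3a (chr12:3806007-3914443, plus strand, GRCm38), which sets methylation at unmethylated sites, had the lowest adjusted p of the 9 genes between Old and Young. Its level in Young libraries was 75.5 CPM at the lowest, 86.6 at the median and 93.1 at the highest. In the Old libraries it was 64.1, 54.2, 70.5 and 49.8 CPM, in Old-Control 61.7, 75.2 and 64.1, and in Old-OSK 41.9, 50.5, 49.4 and 58.5. Every Old library lay below every Young one, and every Old-OSK library lay below every Old-Control one and every Young one. Groups without overlap and lower made up 5.61% of all genes between Old and Young, 5.84% between Old-OSK and Old-Control and 15.6% between Old-OSK and Young. Dnmt3a fell from Young to Old, by a log2 difference of -0.53 (SE 0.11, edgeR adjusted p = 0.00703). The call held in 11 of 11 fits without 1 library (adjusted p = 0.00821 to 0.0380), while among the libraries without the letter M alone it was -0.52 with an edgeR adjusted p of 0.0533. Without the 2 libraries that stood apart it was -0.44 with an adjusted p of 0.0358. In Old-OSK against Old-Control the difference was -0.42 (SE 0.13, 95% interval -0.69 to -0.15, edgeR adjusted p = 0.0847). It was -0.54 with an edgeR adjusted p of 0.0248 without Old-OSK replicate 4, and the adjusted p was 0.318 without Old-Control replicate 1. The log2 difference of Old-OSK against Young was -0.79 (SE 0.11, edgeR adjusted p = 7.81e-05).

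Dnmt3b (chr2:153649450-153687730, plus strand), the second de novo enzyme, was scarce in every group. Young libraries ran from 1.16 through a median of 1.68 to 2.79 CPM, and the lowest count of any member in any library was its 20 counts in Young replicate 5. The Old libraries held 2.11, 1.46, 1.61 and 1.58 CPM, Old-Control 1.44, 2.64 and 1.35, and Old-OSK 1.55, 1.41, 1.85 and 2.64. All 4 groups overlapped. The difference between Old and Young was -0.13 on the log2 scale (95% interval -0.71 to 0.46) and that between Old-OSK and Old-Control 0.04 (95% interval -0.67 to 0.75), and a change within these intervals was not detectable in these libraries.

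Dnmt1 (chr9:20907209-20959888, minus strand), the maintenance methyltransferase, rose where Dnmt3a fell, between Young and Old-OSK. Young libraries lay between 22.2 and 30.7 CPM with a median of 26.2. The Old libraries held 29.1, 31.7, 27.8 and 35.7 CPM, Old-Control 21.8, 36.0 and 23.3, and Old-OSK 36.3, 39.9, 38.3 and 35.7. All 4 Old-OSK libraries lay above all 7 Young ones, which was so for 12.6% of all genes, and Old-Control replicate 2 alone of its group reached the Old-OSK range. Dnmt1 rose by 0.51 on the log2 scale between Young and Old-OSK (SE 0.12, edgeR adjusted p = 0.00324). The difference between Old-OSK and Old-Control was 0.47 (SE 0.15, 95% interval 0.15 to 0.79, edgeR adjusted p = 0.0902), and single Old-Control libraries set its call. Without Old-Control replicate 2 it was 0.70 with an adjusted p of 0.00485, and without Old-Control replicate 1 it was 0.34 with an adjusted p of 0.380. Between Old and Young the difference was 0.24 (SE 0.12, edgeR adjusted p = 0.203).

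Uhrf1 (chr17:56303321-56323486, plus strand), which recognises hemimethylated CpG and recruits Dnmt1, varied widely within Old and Old-OSK. Young libraries lay between 1.54 and 3.95 CPM with a median of 2.42. The Old libraries spread over 1.48, 7.53, 5.83 and 11.9 CPM, Old-Control held 2.25, 2.94 and 3.02, and Old-OSK 11.5, 8.44, 11.9 and 2.95. Old replicate 1 and Old-OSK replicate 4 lay at the level of the low groups, and the other libraries of Old and Old-OSK lay above every Young and Old-Control library. Uhrf1 rose by 1.69 on the log2 scale between Young and Old-OSK (SE 0.42, edgeR adjusted p = 0.00446). Between Old and Young the difference was 1.31 (SE 0.42, 95% interval 0.42 to 2.21, edgeR adjusted p = 0.0582). It reached 1.64 with an adjusted p of 0.00988 without Old replicate 1, and was 0.87 with an adjusted p of 0.318 without Old replicate 4. DESeq2 called it, with an adjusted p of 0.0251. In Old-OSK against Old-Control it was 1.67 (SE 0.55, 95% interval 0.49 to 2.84, edgeR adjusted p = 0.0965). With the replicate number as a block, over the 6 libraries of the 3 shared numbers, the same difference was 1.95 (SE 0.28, edgeR adjusted p = 0.0471), and in those libraries without the block it was 1.95 with an adjusted p of 0.0240. That comparison gave an adjusted p of 0.0323 without Old-OSK replicate 4 and of 0.361 without Old-Control replicate 1. Between Old-Control and Old it was -1.29 (SE 0.55, edgeR adjusted p = 0.900).

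Uhrf1 was highest where genes of the cell cycle were highest. The summed level of 20 proliferation markers was 160 to 190 CPM in Young, 158, 256, 182 and 311 CPM in Old, 175 to 201 CPM in Old-Control, and 330, 299, 305 and 216 CPM in Old-OSK. The 5 libraries with Uhrf1 above 7 CPM had the 5 highest sums, while Old replicate 3, with 5.83 CPM of Uhrf1, had a sum of 182 CPM. From Young to Old-OSK, 17 of the 20 markers rose and none fell, against 25.1% of all genes called higher, with a median log2 fold change of 1.16. Examples were the replication helicase subunit Mcm3 (1.21, edgeR adjusted p = 0.000904), the ribonucleotide reductase subunit Rrm2 (2.01, adjusted p = 0.00242) and the proliferation antigen Mki67 (1.87, adjusted p = 0.00241). Between Old and Young no marker was called by edgeR, 11 had an unadjusted p under 0.05, and DESeq2 called 7, with a median of 0.75. edgeR called 8 without Old replicate 1, 2 without Young replicate 3 and 1 without Young replicate 2. In Old-OSK against Old-Control none was called by edgeR and 14 had an unadjusted p under 0.05 (26.3% of all genes did), with a median of 0.79. DESeq2 called 9 of the 20 markers. edgeR called 10 of them without Old-OSK replicate 4, 4 without Old-Control replicate 2 and 6 with the replicate block. Calls over all genes in these alternative fits are not given here, so their counts are not read as results about the markers. Whether dividing cells of the RPE or of another type carried these transcripts was not tested.

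**Figure D3:**
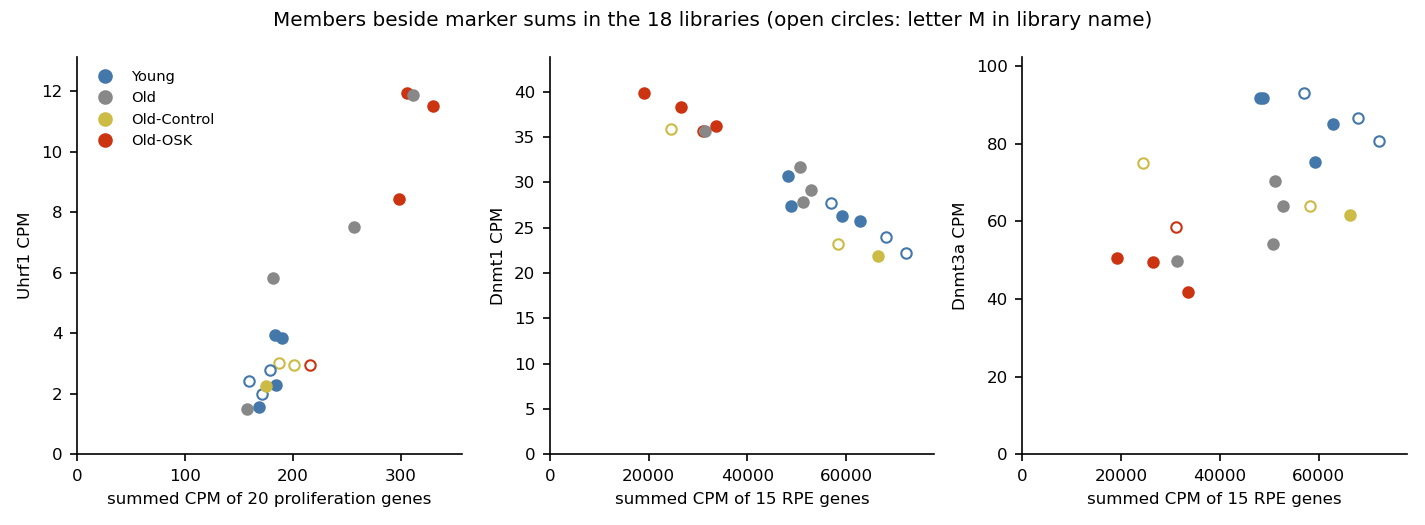
Uhrf1 against the summed level of 20 proliferation markers (left), and Dnmt1 (middle) and Dnmt3a (right) against that of 15 RPE markers, all in CPM, with 1 point per library, coloured by group. The 6 libraries with the lowest RPE sum hold the 6 highest Dnmt1 levels, and Uhrf1 is highest where the proliferation sum is highest.

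Dnmt1 was highest where the RPE markers were lowest. The 6 libraries with the lowest summed level of RPE markers (19094 to 33559 CPM: the 4 Old-OSK libraries, Old replicate 4 and Old-Control replicate 2) were the 6 with the highest Dnmt1 (35.7 to 39.9 CPM). In the other 12 libraries the RPE sum lay between 48139 and 72080 CPM and Dnmt1 between 21.8 and 31.7 CPM. In the 6 libraries Dnmt3a stood at 41.9 to 58.5 CPM (Old-OSK), 49.8 (Old replicate 4) and 75.2 (Old-Control replicate 2). In the other 12 it ran from 54.2 CPM (Old replicate 2) to 93.1 CPM (Young replicate 6). The sum of 10 markers of rod photoreceptors was 156 to 3073 CPM in Young, 2122 to 7661 in Old, 1620 to 19376 in Old-Control and 2900 to 16309 in Old-OSK, and Old replicate 1, at 7661, lay outside those 6 libraries. The sum of 12 macrophage and microglia markers was 504 to 692 CPM in Young and 775 to 1296 CPM in Old, with 955 to 1185 in Old-Control and 864 to 1080 in Old-OSK. It was thus higher in every aged library, while Dnmt3a and Tet1 had lower means in the aged groups. Gene by gene, edgeR called 10 of these 12 higher between Old and Young (median log2 2.29, 9.56% of all genes called). From Young to Old-OSK 11 rose and 1 fell (median 3.07, 46.4% of all genes called). There 14 of 15 RPE markers fell (median -1.26, 21.4% of all genes fell) and 10 of 10 rod markers rose (2.17, 25.1% of all genes rose). None of them was called between Old-OSK and Old-Control, where 0.728% of all genes were called. At an unadjusted edgeR p under 0.05 there were 11 of the 15 RPE markers (median log2 -0.76), against 26.3% of all genes. There were also 3 of the 12 macrophage and microglia markers (0.43) and 0 of the 10 rod markers (-0.15). Between Old and Young, 3 of the 15 RPE markers were called lower (median -0.45, 4.16% of all genes called lower). The sum of 6 markers of choroidal melanocytes was 451 to 538 CPM in Young and 327 to 413 in Old, 298 to 350 in Old-Control and 303 to 348 in Old-OSK, all below Young. Gene by gene, 1 of the 6 was called lower between Old and Young (16.7%, against 9.56% of all genes called). From Young to Old-OSK 2 fell (33.3%, against 46.4%). Between Old-OSK and Old-Control none was called, and 5 of the 6 had a positive sign (median log2 0.47). The 8 Muller glia markers, which include the RPE gene Rlbp1, summed to 8272 to 10353 CPM in Young and to 4887 to 8462 CPM in the aged libraries. The 8 lymphocyte markers summed to at most 8.52 CPM in any library. The part of RPE content and of these other cells in the members' levels was not tested.

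Among the Tet genes, Tet1 fell with age and its relatives did not pass the test. Tet1 (chr10:62804570-62908996, minus strand) lay between 5.96 and 12.4 CPM in Young with a median of 9.05. It stood at 5.75, 6.27, 6.05 and 5.92 CPM in Old, at 5.56, 7.58 and 5.60 in Old-Control, and at 3.34, 5.03, 5.46 and 5.58 in Old-OSK. The Old libraries were closely grouped, and 6 of the 7 Young libraries lay above all of them, the exception being Young replicate 7. Tet1 fell from Young to Old, by a log2 difference of -0.64 (SE 0.19, edgeR adjusted p = 0.0436). This call was kept in 2 of 11 fits without 1 library, those without Young replicate 3 and without Young replicate 7, with adjusted p-values from 0.0220 to 0.150. The difference itself ran from -0.73 to -0.56 over those fits. Without the 2 libraries that stood apart it was -0.62 with an edgeR adjusted p of 0.115, and with the letter M as a covariate -0.64 with an adjusted p of 0.0873. Every Old-OSK library lay below every Young one, as for 15.6% of all genes, and the difference was -0.95 (SE 0.19, edgeR adjusted p = 0.00119). Between Old-OSK and Old-Control it was -0.36 (SE 0.23, edgeR adjusted p = 0.325).

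Tet2 (chr3:133463679-133545139, minus strand), which lacks the CXXC DNA-binding domain of its relatives, passed the test in no comparison. Young libraries ran from 18.5 through a median of 26.0 to 35.6 CPM. Old held 19.11, 26.4, 26.6 and 27.8 CPM, Old-Control 20.5, 25.8 and 15.8, and Old-OSK 23.0, 24.0, 22.8 and 17.6. All groups overlapped, and the difference between Old and Young was -0.05 on the log2 scale (95% interval -0.40 to 0.30, edgeR adjusted p = 0.882). Between Old-OSK and Old-Control it was 0.08 (SE 0.20, edgeR adjusted p = 0.859).

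Tet3 (chr6:83362373-83459084, minus strand), the most abundant Tet gene per kilobase of exon, lay between 32.2 and 49.9 CPM in Young with a median of 40.4. Old held 33.2, 43.3, 42.1 and 66.3 CPM, Old-Control 36.6, 60.2 and 31.6, and Old-OSK 61.5, 57.4, 53.2 and 39.7. The high values in Old and Old-Control belonged to Old replicate 4 and Old-Control replicate 2, the 2 libraries that stood apart on the first principal component. No comparison was called: between Old-OSK and Old-Control the difference was 0.31 on the log2 scale (SE 0.24, 95% interval -0.19 to 0.81, edgeR adjusted p = 0.448), and against Young 0.35 (SE 0.19, edgeR adjusted p = 0.148). Without those 2 libraries the difference between Old-OSK and Old-Control was 0.60 with an edgeR adjusted p of 0.0294, and that between Old and Young was -0.06 in place of 0.15.

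**Figure D4:**
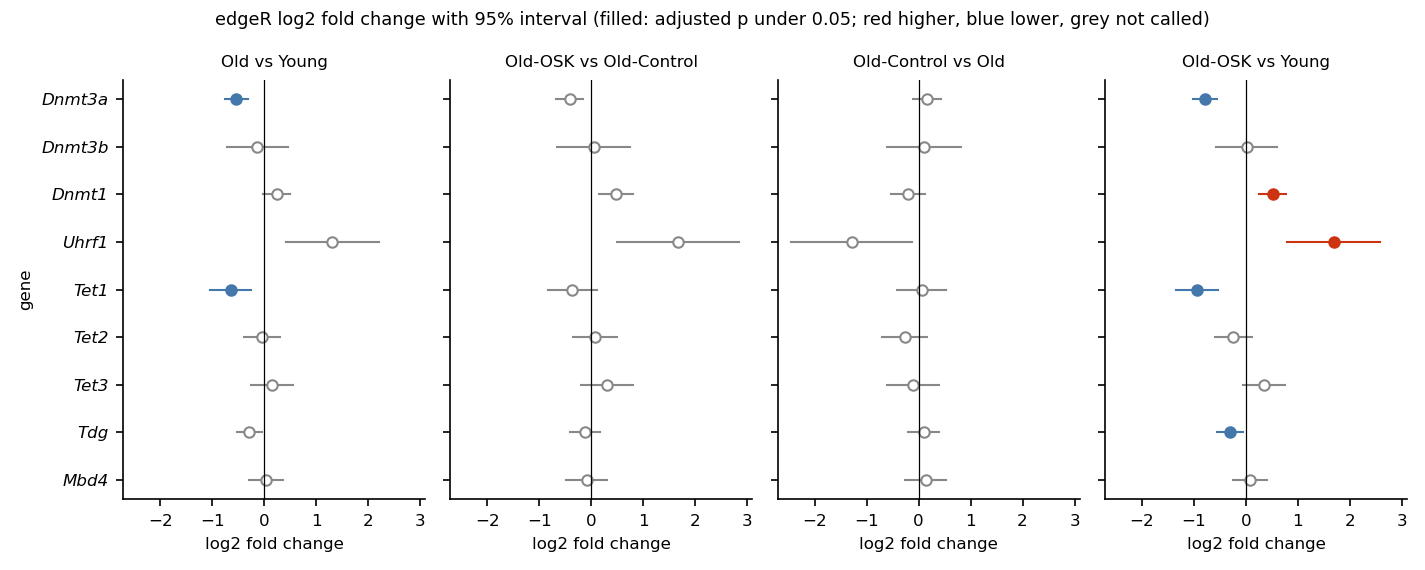
Log2 fold change of each enzyme gene with its 95% interval in the 4 comparisons, with genes called by edgeR at an adjusted p under 0.05 marked. Dnmt3a lies below 0 between Old and Young (-0.53) and between Old-OSK and Young (-0.79), and no gene is called between Old-OSK and Old-Control.

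Of the glycosylases, Tdg was called in 1 comparison and Mbd4 in none. Tdg (chr10:82629828-82650799, plus strand) lay between 19.07 and 23.5 CPM in Young with a median of 20.2. Old held 13.9, 18.1, 16.7 and 19.8 CPM, Old-Control 15.2, 22.2 and 17.5, and Old-OSK 18.8, 15.6, 16.8 and 16.1. Every Old-OSK library lay below the lowest Young one, replicate 1 most narrowly, which was so for 15.6% of all genes. Tdg fell from Young to Old-OSK, by a log2 difference of -0.31 (SE 0.11, edgeR adjusted p = 0.0376). That call held in 6 of 11 fits without 1 library, with an adjusted p of up to 0.100 without Old-OSK replicate 2. It was lost without Young replicate 3 or 4 or Old-OSK replicate 2, 3 or 4, and among the libraries without the letter M (edgeR adjusted p = 0.0653). Between Old and Young the difference was -0.28 (SE 0.11, edgeR adjusted p = 0.117). The exons of Tdg overlap those of Glt8d2 on the opposite strand by 367 bases, and Glt8d2 had 324 counts over all 18 libraries. Mbd4 (chr6:115840697-115853371, minus strand) lay between 3.21 and 4.50 CPM in Young with a median of 3.76, and at 3.65 to 4.66 in Old, 3.93 to 5.31 in Old-Control and 3.29 to 4.79 in Old-OSK. Its groups overlapped throughout, with a difference of 0.04 between Old and Young (95% interval -0.29 to 0.36, edgeR adjusted p = 0.901) and of -0.09 between Old-OSK and Old-Control (SE 0.19, edgeR adjusted p = 0.821). Mbd4, Tet2 and Dnmt3a share 264, 43 and 133 exonic bases with antisense genes that are not rows of the table, and the strand setting of the counting is not given in the sources used here.

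Ratios within a library do not depend on scaling between libraries and were computed after the levels had been seen, so they are given without a test. Dnmt1 had 27.5 to 34.8 counts per 100 counts of Dnmt3a in Young, with a median of 29.8. It had 45.4, 58.5, 39.4 and 71.7 in Old, 35.4, 47.8 and 36.3 in Old-Control, and 86.5, 79.0, 77.5 and 61.0 in Old-OSK. Every aged library lay above every Young one, and every Old-OSK library above every Old-Control one. Among the counts of the Tet genes, the share of Tet1 was 12.2% ± 2.09 (SD, n = 7) in Young, 8.04% ± 1.63 (n = 4) in Old, 9.17% ± 1.25 (n = 3) in Old-Control and 6.30% ± 2.10 (n = 4) in Old-OSK. The share of Tet3 was 54.3% ± 4.12, 59.2% ± 4.73, 60.8% ± 3.12 and 66.2% ± 2.88 in the same order. Shares of counts carry the genes' lengths, so they compare libraries and not genes.

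**Figure D5:**
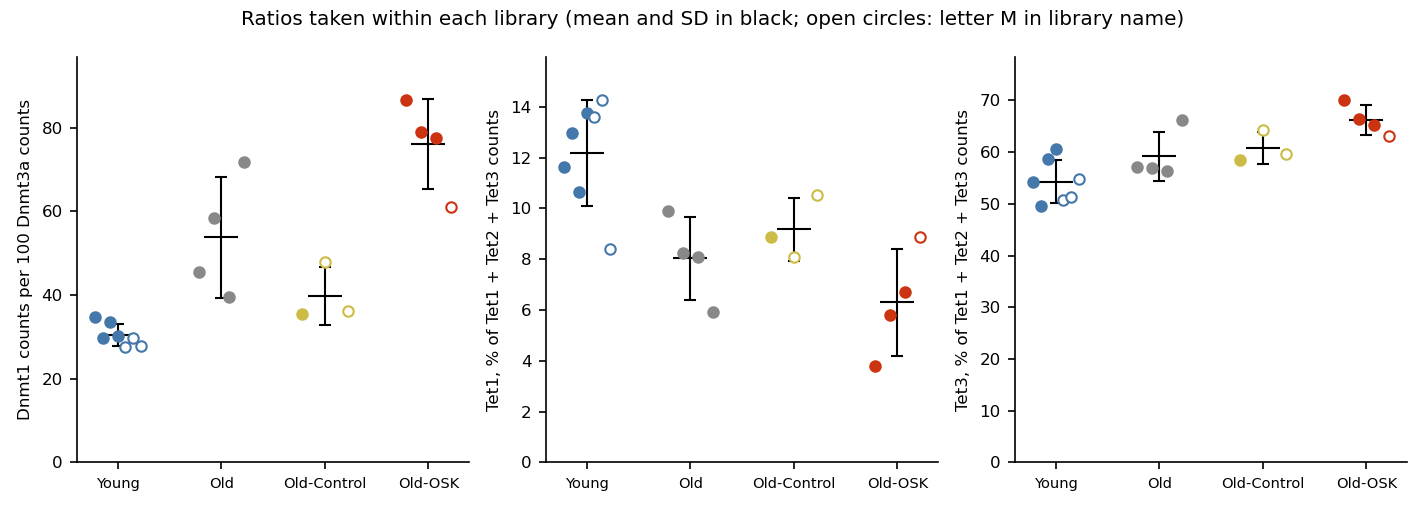
Counts of Dnmt1 per 100 counts of Dnmt3a, and the shares of Tet1 and of Tet3 among the counts of Tet1, Tet2 and Tet3 in percent, with 1 point per library and the group mean with its SD. The Dnmt1 ratio lies at 27.5 to 34.8 in Young and at 61.0 to 86.5 in Old-OSK.

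No member was called between aged RPE given the vector without OSK and aged RPE with no vector named. Between Old-Control and Old the edgeR adjusted p-values ran from 0.900 to 0.987. The fold changes on the log2 scale were 0.17 for Dnmt3a, 0.10 for Dnmt3b, -0.20 for Dnmt1, 0.06 for Tet1, -0.27 for Tet2, -0.11 for Tet3, 0.10 for Tdg and 0.14 for Mbd4, beside the -1.29 of Uhrf1. All 9 genes overlapped between these groups, and 3.18% of all genes did not.

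Genes around the 9 enzymes were read from lists by function. Of 17 readers of methylated CpG and accessory factors, 2 rose and 4 fell from Young to Old-OSK (35.3%, against 46.4% of all genes). Those that rose were Hells, a chromatin remodeller needed for normal methylation (1.05 on the log2 scale, edgeR adjusted p = 0.00559), and the Uhrf1 paralog Uhrf2 (0.31, adjusted p = 0.0449). Falls included the tRNA methyltransferase Trdmt1 (-0.65, adjusted p = 0.00142) and the zinc-finger reader Zbtb38 (-0.32, adjusted p = 0.00438). The median over the 17 was -0.03, against 0.06 for all genes. None was called by edgeR between Old and Young (4 at an unadjusted p under 0.05, DESeq2 2) or between Old-OSK and Old-Control (5 at an unadjusted p under 0.05, DESeq2 0). In the latter comparison 3 fell without Old-Control replicate 2 and 1 without Old-OSK replicate 4, and in the former 1 was called without Old replicate 1 and 1 without Old replicate 2.

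Of 21 genes of base excision repair and its Gadd45 partners, 2 rose between Young and Old (9.52%, near the 9.56% of all genes called) and 8 between Young and Old-OSK (38.1%, against 46.4% of all genes called and 25.1% called higher), and none fell. The damage-induced Gadd45a and Gadd45b were the 2 that rose with age, by 1.26 (edgeR adjusted p = 0.0355) and 1.54 (adjusted p = 0.0357) on the log2 scale. From Young to Old-OSK, Gadd45b rose by 2.50 (adjusted p = 0.000378), Gadd45a by 1.87 (adjusted p = 0.000668) and Gadd45g by 0.78 (adjusted p = 0.00442). The median of the list was 0.33 there and 0.07 between Old and Young. The count between Old and Young was 0 or 1 without any one of Young replicates 1, 2, 4, 5, 6 and 7 or Old replicates 2, 3 and 4, and that of Old-OSK against Young was 5 without Old-OSK replicate 1 or 2. No gene of the list was called between Old-OSK and Old-Control by edgeR or DESeq2, 3 had an unadjusted p under 0.05, and 2 rose without Old-Control replicate 2.

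Of 20 genes in or around the cycle of the methyl donor S-adenosylmethionine, 1 fell between Old and Young (5%, against 9.56% of all genes called), the methionine adenosyltransferase subunit Mat2b (-0.28, edgeR adjusted p = 0.0387). No gene of the list was called there without any one of Young replicates 1, 4, 5, 6 and 7 or Old replicates 2, 3 and 4, and 2 were called without Young replicate 3. With all libraries, none was called under median-ratio size factors, without a low-count filter or with a mean count of at least 50. From Young to Old-OSK 3 rose and 7 fell (50%, near the 46.4% of all genes called). The mitochondrial folate enzyme Mthfd1l rose by 1.80 (adjusted p = 0.000854). Those that fell included Ahcyl2 (-0.78, adjusted p = 9.56e-05) and Ahcyl1 (-0.74, adjusted p = 0.000212), homologs of S-adenosylhomocysteine hydrolase. In Old-OSK against Old-Control edgeR called none of the 20, 6 had an unadjusted p under 0.05 and DESeq2 called 3, and edgeR called 6 without Old-Control replicate 2 and 2 without Old-OSK replicate 4.

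Of 15 cofactor genes and partners of the Tet enzymes 12 could be tested. Idh1, which makes the co-substrate 2-oxoglutarate in the cytosol, fell between Young and Old (-0.47, edgeR adjusted p = 0.0171), with 112 ± 12.5 CPM (SD, n = 7) in Young, 81.2 ± 7.77 (n = 4) in Old, 83.3 ± 9.13 (n = 3) in Old-Control and 106 ± 16.6 (n = 4) in Old-OSK. No gene of the list was called between Old and Young without Old replicate 2 or without Old replicate 3, 2 were called without Young replicate 3 and 3 without Old replicate 1. From Young to Old-OSK 8 of the 12 fell and none rose (66.7%, against 21.4% of all genes called lower), with a median of -0.39. They included the ascorbate transporter Slc23a2 (-0.64, adjusted p = 0.000283), the Sin3 complex subunit Sinhcaf (-0.48, adjusted p = 0.00134) and the CXXC protein Cxxc4 (-0.77, adjusted p = 0.00392). In Old-OSK against Old-Control none was called by edgeR or DESeq2 and 5 had an unadjusted p under 0.05, and edgeR called 4 without Old-Control replicate 2 and 2 without Old-OSK replicate 4. Between Old-Control and Old no gene of these lists was called by edgeR or DESeq2, and at most 2 of a list had an unadjusted p under 0.05.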

How the data were processed

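Per the labels' protocols, RNA was extracted with TRIzol, amplified with SMART-Seq v4 and made into Nextera XT libraries. The authors deposited raw counts per gene, without molecular identifiers in the table. The submitters' processing notes name STAR 2.7.1a, featureCounts 1.6.2 and mouse build GRCm38 (mm10) beside a human build, and the annotation and strand setting are not given in the sources used here. Counts were tested with edgeR 4.0.16 (R 4.3.3): filterByExpr (minimum count 10, minimum total 15), TMM scaling, 1 quasi-likelihood fit with 4 group means over 18 libraries, and Benjamini-Hochberg adjustment over all 15944 genes. CPM use TMM-scaled library sizes. SE is the fold change divided by the square root of F, and 95% intervals use 16.7 degrees of freedom. Loci and exon lengths come from GENCODE M21 and promoters from RefSeq, matched by symbol (9 of 9). The scripts were tested on simulated data.

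All 9 members are named. From each list, up to 3 called genes per direction with the lowest adjusted p were eligible to be named. Some eligible genes are not reported here. The members and lists were chosen with earlier results of these data known. Deviations from the group means over genes correlated between same-numbered libraries of Old-OSK and Old-Control at r = 0.103, 0.421 and 0.339. Other groups had similar values, 0.359 for number 3 of Old-Control and Old and 0.352 for number 4 of Old-OSK and Young. Libraries of unlike number were not compared, so no pairing is read from these values. The comparison of Old-OSK and Old-Control was also fitted with the replicate number as a block. The labels do not say what a number marks. Alternatives were DESeq2 1.42.0, median-ratio size factors, other low-count filters, robust moderation, the letter M, 2 groups alone, the block, and leaving out single libraries or the 2 that stood apart.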

Additional observations from a re-analysis of the deposited data

Results flagged for a closer look

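Of 27 pairs of a gene and a group with at least 4 libraries, 1 had a library far from the others. Tet2 in Old stood at 19.11 CPM in replicate 1 and at 26.4 to 27.8 CPM in the other libraries, so that the gap made up 0.836 of the group's range. Chance alone flags about 5% of such pairs.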

How the results depend on the processing

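Under 698 alternatives to the 36 fold changes, 612 kept direction and side of the threshold, 25 lost the call, 15 gained one and 46 changed sign, none of the latter for a called gene. Members called between Old and Young (2) numbered 1 without a low-count filter, 1 with a mean count of at least 50, 1 with the letter M as a covariate, 0 in libraries without M, 1 without the 2 libraries that stood apart, and 1 to 3 without 1 library. With the replicate block they numbered 0, as in the same libraries unblocked (0). Between Old-OSK and Old-Control (0) they numbered 3 in DESeq2, 2 without the 2 libraries, 1 with the replicate block, 1 in the same libraries unblocked, and 0 to 2 without 1 library. Between Old-OSK and Young they stayed within 4 to 6, and between Old-Control and Old at 0. The block is no true pairing between Old and Young, where same-numbered libraries correlated at -0.05, -0.02, 0.144 and -0.19. Between Old-OSK and Old-Control the block changed no member's call against the same libraries unblocked, where Uhrf1 was already called. Among the lists, Old-OSK against Young had 4 repair genes called (8) and 5 methyl-donor genes (10) in libraries without M and with the replicate block, and 5 germline genes (2) without a low-count filter and 0 with a mean count of at least 50. Without the 2 libraries, Old-OSK against Old-Control had 5 readers, 3 repair, 6 methyl-donor, 4 cofactor and 7 proliferation genes called (0 each). Calls over all genes in the alternative fits of Old-OSK against Old-Control are not given here. Counts of members or of list genes from those fits are therefore not read as results about them. The 2 repair genes, 1 methyl-donor gene and 1 cofactor gene called between Old and Young were called in neither the fit with M nor that without M libraries (0). The cause of these shifts was not tested. Some of the fits hold fewer libraries, and those in DESeq2, with other low-count filters or with M as a covariate hold all of them.

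Changes of sign were all uncalled, and on the log2 scale they reached -0.31 for Dnmt3b. Without the 2 libraries, Tet3 was -0.058 between Old and Young, Tdg 0.014 and Mbd4 0.037 between Old-OSK and Old-Control, and Tet1 -0.12, Dnmt3a -0.0086, Dnmt3b -0.31 and Mbd4 -0.068 between Old-Control and Old. In libraries without M, Mbd4 was -0.051 between Old and Young and -0.061 between Old-OSK and Young, and Dnmt3b -0.29 in the latter. With M as a covariate, Tet3 was 0.041 and Dnmt3b -0.024 between Old-Control and Old. With the block and then unblocked, Mbd4 was -0.064 and -0.059 between Old and Young and -0.043 and -0.031 between Old-OSK and Young, Dnmt3b -0.12 and -0.18 between Old-OSK and Old-Control and -0.088 and -0.077 between Old-OSK and Young, and Tet3 0.057 and 0.10 between Old-Control and Old. Without 1 library, values between Old and Young ran from -0.11 to 0.061 for Tet2, -0.072 to 0.28 for Tet3, -0.25 to 0.0053 for Dnmt3b and -0.042 to 0.083 for Mbd4. Between Old-OSK and Old-Control they ran from -0.082 to 0.24 for Tet2, -0.24 to 0.014 for Tdg, -0.21 to 0.40 for Dnmt3b and -0.19 to 0.037 for Mbd4. Between Old-Control and Old they ran from -0.10 to 0.14 for Tet1, -0.43 to 0.11 for Tet3, -0.061 to 0.21 for Tdg, -0.27 to 0.27 for Dnmt3b and -0.013 to 0.22 for Mbd4. Between Old-OSK and Young they ran from -0.23 to 0.15 for Dnmt3b and -0.017 to 0.17 for Mbd4. Comparisons of Old-Control among libraries without M were not run, since 1 Old-Control library lacks it.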

Other observations

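Germline genes that promoter methylation is known to hold silent in somatic cells were low. Of 18 such genes 7 could be tested, and their summed level over all 18 genes was 6.22 to 7.85 CPM in Young, 6.56 to 8.99 in Old, 6.55 to 12.1 in Old-Control and 5.03 to 9.86 in Old-OSK. Old-OSK against Young had 1 gene called in each direction by edgeR (28.6%, against 46.4% of all genes). The other comparisons had none called by edgeR, but between Old and Young DESeq2 called 2 higher, as did edgeR without a low-count filter. The piRNA pathway gene Piwil2 rose by 1.68 on the log2 scale (edgeR adjusted p = 0.0143). Mael, which acts in transposon silencing in the germline, fell by -3.10 (adjusted p = 0.000204), from 1.20 ± 0.444 CPM (SD, n = 7) in Young to 0.137 ± 0.0152 CPM (n = 4) in Old-OSK, where the libraries held 3 or 4 counts each. Old held 0.683 ± 0.314 CPM of Mael (n = 4) and Old-Control 0.431 ± 0.293 (n = 3). edgeR called 1 of these 2 without Old-OSK replicate 4. With a mean count of at least 50 as the filter, no gene of the list was left to call.

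The genes with a pattern most like that of a member over the 18 libraries were found by Pearson correlation of log2 CPM among genes whose log2 CPM averaged 3 or more. The values are descriptions, since libraries of 4 groups share depth, group and composition. For Dnmt3a these were Pacs2 (r = 0.959), Pomt2 (0.954) and Ptar1 (0.944), and for Dnmt1 they were Meis2 (0.950), Reps2 (0.943) and Plcd3 (0.943). For Uhrf1 they were Fam83h (0.974), Dsp (0.965) and Rgs12 (0.962). Tet1 was most like Fnip1 (0.933), Taf1 (0.922) and Rev3l (0.921), and Tet3 most like Wdr44 (0.949), Jmjd1c (0.932) and Magi3 (0.932). Tet2 was most like Zc3h7a (0.849), Tdg like Rasa1 (0.803), Dnmt3b like Gprasp2 (0.843) and Mbd4 like Fgfr1op (0.752).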
